A study of Mus musculus with 8 samples.

Results

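The genes described here are serum response factor (Srf), its cofactor Mkl1 and 8 genes of the actin cytoskeleton, Actb, Actg1, Vcl, Flna, Myh9, Tln1, Zyx and Tagln2. They were chosen by name, as the rows of the authors' table whose gene symbol is one of these, and all 10 were found among the 23084 genes listed. RNA was sequenced from myeloid cells sorted from the spleens of C57BL/6 mice aged 6 to 8 weeks. The published account of the RNA sequencing does not say whether these mice bore tumours. The 8 samples form 4 groups of 2, which are CD11b+Ly6C+ (monocytic) and CD11b+Ly6G+ (granulocytic) cells, each from wt mice and from Lmna knockout mice. In the knockout, Lmna alleles flanked by loxP sites are deleted by LysM-Cre, a Cre inserted in the Lyz2 gene that acts in myeloid cells. Titles gave the subsets, because the label for cell markers reads CD11b+Ly6C+ throughout.

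Actin monomers hold MKL1 in the cytoplasm. When monomers are built into filaments, MKL1 is released, enters the nucleus and acts with SRF on genes of the cytoskeleton, actin itself among them. Lamin A/C and emerin, proteins of the nuclear envelope, influence this circuit through nuclear actin, and monocytes and neutrophils depend on actin remodelling to crawl, adhere and engulf particles.

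The values below are levels, not differences between genotypes. Each is the authors' mean over samples of a gene's normalised count (an estimated read count divided by a size factor of its sample), taken from a table of 1 comparison between wt and knockout. Which samples were averaged was not stated, and they may be the 4 of such a comparison or all 8. Values of single samples and the effect of the Lmna knockout were not analysed here, so no value has a replicate error and no test was run. To compare genes, the mean was divided by the kilobases covered by all annotated exons of the gene. In bulk samples such as these, fewer cells of a type and less RNA per cell cannot be told apart.

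The 10 genes lay high in the table. Of the 10, 9 were at or above the 90th percentile of mean normalised count, where 10% of all genes lie. Tagln2 was just inside this limit, at a mean of 3069 normalised counts, and Srf was just outside it, at 1867, with the limit itself at 2196. Of all 10 genes, 5 were among the 50 genes with the highest mean normalised count, and 2 among the 50 with the highest level per kilobase. Together they made up 2.25% of the summed mean normalised count of all genes listed, and 1.34% of the summed level per kilobase. On the scale per kilobase all 10 were above the 90th percentile, and their median was 4583 normalised counts per kilobase, beside 18.8 for all genes.

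The pathway's own regulators were at the lower end of the set. Srf (ENSMUSG00000015605), the transcription factor, lies on the minus strand at chr17:46548329-46556175 of mm10 and had 645 normalised counts per kilobase, the lowest level of the 10. Mkl1 (ENSMUSG00000042292), known as Mrtfa in later annotation, lies on the minus strand at chr15:81012281-81190757 and had 997 normalised counts per kilobase. The level of Mkl1 was thus 1.55 times that of Srf per kilobase of exons, and 1.95 times per kilobase of the longest transcript. SRF has other partners, and these were lower than both on the same scale. Mkl2, the closest relative of Mkl1, had 42.1 normalised counts per kilobase, so that the level of Mkl1 was 23.7 times that of Mkl2. The ternary complex factors, which bring SRF to growth factor signals in place of MKL1, had levels per kilobase of 266 for Elk4, 125 for Elk3 and 107 for Elk1. Srf was 2.43 times Elk4 per kilobase of exons, but 0.936 times Elk4 per kilobase of coding sequence, so the order of Srf and Elk4 depends on the length used. Of the 6 genes of this list that were found, 1 was at or above the 90th percentile of mean normalised count, and Myocd was not among the rows used here.

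The cytoplasmic actins were the highest of the set per kilobase. By mean normalised count, with no length correction, Actb was 7th, Flna 14th and Actg1 15th of all genes. Actb (ENSMUSG00000029580), which encodes beta-actin, lies on the minus strand at chr5:142903115-142906754 and had 69844 normalised counts per kilobase. Actg1 (ENSMUSG00000062825), which encodes gamma-actin, lies on the minus strand at chr11:120345690-120348542 and had 39390 normalised counts per kilobase. Actb was 1.77 times Actg1 on this scale. The muscle actins were far lower, with Acta2 of smooth muscle at 448 normalised counts per kilobase, Acta1 of skeletal muscle at 3.56 and Actg2 of enteric smooth muscle at 1.93. Actb and Actg1 therefore held 99.6% of the summed level per kilobase of the actin genes found, which were 5 of the 6 listed, with Actc1 the other one.

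How reads were divided between Actg1 and its copies bears on its level. The coding sequences of Actb and Actg1 were identical at 997 of 1125 bases, or 88.6%. Of all stretches of 50 bases in the Actg1 transcript, 43.3% were found in no transcript of another gene, and within its coding part the share was 0%. Outside the coding part of Actg1 it was 99.6%. For Actb the share over the whole transcript was 85.8%. The gene that held the most of them, 51.1% of the stretches of Actg1, was Gm12715, a processed pseudogene, which is a DNA copy of a spliced transcript. The 9 pseudogenes listed that share a stretch with Actg1 had a summed mean of 2734 normalised counts, which is 2.61% of the mean of Actg1. The levels of Actg1 and of its pseudogenes are uncertain to the extent that the authors' estimation divided these reads.

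Genes that crosslink actin and pull on it ranged more widely. Flna (ENSMUSG00000031328) encodes filamin A, which ties filaments into a network and anchors them to membrane receptors, lies on the minus strand at chrX:74223461-74249820 and had 11389 normalised counts per kilobase. Myh9 (ENSMUSG00000022443) encodes the heavy chain of non-muscle myosin IIA, the motor that contracts the cell cortex, lies on the minus strand at chr15:77760587-77842175 and had 6270 normalised counts per kilobase. Tagln2 (ENSMUSG00000026547) encodes transgelin 2, an actin-bundling protein of the calponin family, lies on the plus strand at chr1:172500047-172507380 and had 1474 normalised counts per kilobase. Both Myh9 and Tagln2 had a paralogue at a far lower level. Per kilobase, Myh9 was 674 times Myh10 (myosin IIB) and Tagln2 was 48.4 times Tagln, the smooth muscle transgelin.

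Genes of integrin adhesions were the third role. Tln1 (ENSMUSG00000028465) encodes talin 1, which binds integrin tails and switches integrins on, lies on the minus strand at chr4:43531519-43562691 and had 4720 normalised counts per kilobase. Zyx (ENSMUSG00000029860) encodes zyxin, which gathers at filaments under tension, lies on the plus strand at chr6:42349630-42360213 and had 4446 normalised counts per kilobase. Vcl (ENSMUSG00000021823) encodes vinculin, which strengthens the link between talin and actin, lies on the plus strand at chr14:20929398-21033676 and had 798 normalised counts per kilobase. Talin and vinculin act together, and the level of Tln1 was 5.92 times that of Vcl per kilobase of exons and 2.97 times per kilobase of coding sequence. The paralogue Tln2 was at 0.391 normalised counts per kilobase, while the zyxin relatives Trip6 and Lpp were at 61.1 and 42.9. Per kilobase of coding sequence Trip6 was at 103 and Lpp at 514, so their order depends on the length used. Per kilobase of exons the lowest of the paralogues was the myosin gene Myh14 at 0.0389. Of the 8 paralogues found for the other genes of the set, 0 were at or above the 90th percentile of mean normalised count, and Flnc was not among the rows used here.

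The level of Vcl is uncertain for another reason. Its 3′ end overlaps that of Ap3m1, a gene of the opposite strand at chr14:21031442-21052508, over 2090 exonic bases, or 25.5% of the exon bases of Vcl. Of the stretches of 50 bases in the Vcl transcript, read on both strands, 60.8% were found in no other gene. Within the coding part of Vcl the share was 96.9%, and outside it 5.94%. Whether the counting used strand is not given in the sources used here. The mean of Ap3m1 was 2154 normalised counts and that of Vcl 6533. Srf, Mkl1 and Flna shared 0 such stretches with other genes, as 100% of theirs were found nowhere else.

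**Figure D1:**
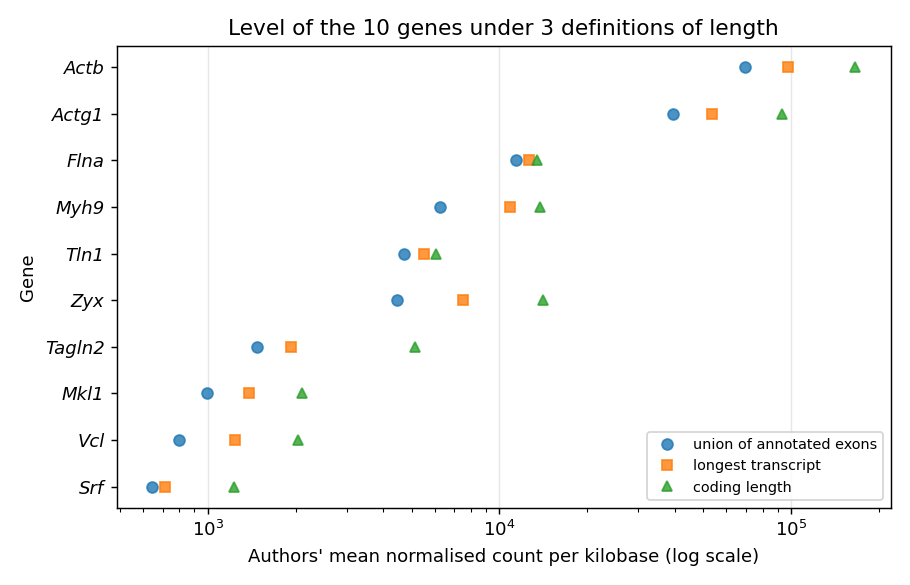
The authors' mean normalised count per kilobase (log axis) of each of the 10 genes, with points for 3 definitions of gene length. Actb and Actg1 are highest and Srf is lowest under all 3, while Zyx is 6th by exon length, 5th by longest transcript and 3rd by coding length.

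Genes of actin turnover and branching were high as well. Of 8 genes that bind actin monomers or turn filaments over, 8 were at or above the 90th percentile of mean normalised count. Tmsb4x, which encodes the main monomer-binding peptide thymosin beta 4, was the highest of these at 140347 normalised counts per kilobase, and the level of Actb was 0.498 times that of Tmsb4x per kilobase of exons but 0.130 times per kilobase of coding sequence. The lowest of them was Capg, a capping protein, at 2461 normalised counts per kilobase. Of 10 genes that start or branch filaments or regulate branching, 10 were above the same limit. They ran from the formin gene Diaph1 at 1863 to Coro1a, which encodes a coronin that binds the branching complex, at 19910 normalised counts per kilobase.

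The genes listed for integrin adhesion were similar. All 9 genes of this list, not all of them integrin genes, were above the limit on the scale of mean normalised count. On the scale per kilobase 8 of the 9 were. The list holds Itgam, the CD11b gene, and both subsets were sorted as CD11b+, so its place above the limit is not independent of the sort. Itgb2, the beta 2 chain that pairs with the CD11b chain in leukocytes, was highest of the list at 15390 normalised counts per kilobase, and Itgb3 was lowest at 378. The integrin genes Itga5 and Itga2b, which are in other lists, were below the limit, at means of 497 and 147 normalised counts.

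Crosslinking and contraction genes were divided. Of 14, 10 were above the limit by mean normalised count, with the leukocyte bundling protein gene Lcp1 highest at 11266 normalised counts per kilobase. The 4 others were Tpm1, Tpm2, Myl9 and Cnn1, forms best known from muscle and smooth muscle. Among them Cnn1, calponin of smooth muscle, was lowest at 0.197 normalised counts per kilobase.

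Known targets of SRF did not share a level. Of 6 immediate early genes, which SRF drives with the ternary complex factors, 3 were at or above the 90th percentile of mean normalised count. Junb was highest at 6806 normalised counts per kilobase and Egr2 lowest at 25.4. Of 15 genes known in other cells as targets of SRF with MKL proteins, and outside the set of 10, 3 were above the limit, and the median was 30.5 normalised counts per kilobase. These ran from Cnn2, a calponin of non-muscle cells, at 9240 normalised counts per kilobase down to Cnn1.

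**Figure D2:**
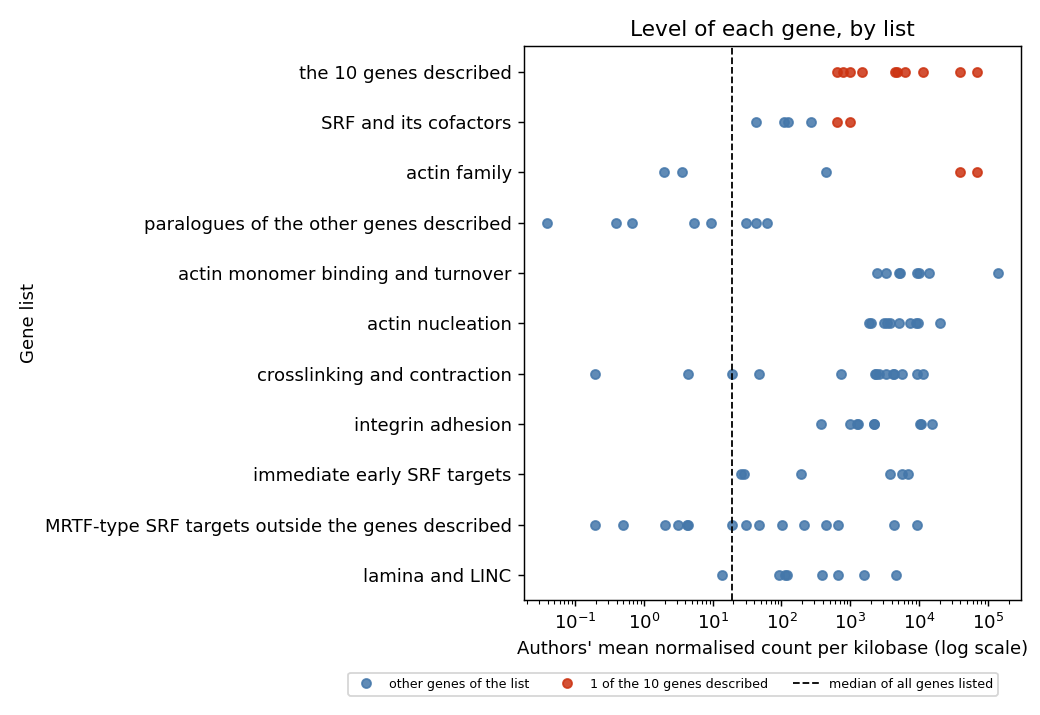
The authors' mean normalised count per kilobase (log axis) of every gene found in each list, with the 10 genes described in red, the other genes in blue and the median of all genes as a dashed line. The 10 genes all lie at 645 normalised counts per kilobase or above, while the targets of SRF outside them run from 0.197 to 9240.

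The nuclear envelope connects to this circuit. Lmna, the gene deleted in the knockout mice, had 13.6 normalised counts per kilobase in the authors' mean. Whether over 4 or all 8 samples, that mean would pool wt with knockout, so it is not taken as the level of Lmna in wt cells and is not ranked against genes that were not deleted. The list of the lamina and of the complex that links it to the cytoskeleton holds 8 genes, Lmna among them. With Lmna left unranked, 4 of the others were at or above the 90th percentile of mean normalised count. Lmnb1, which encodes lamin B1, was at 1589 normalised counts per kilobase. Sun2, which spans the inner nuclear membrane, was highest at 4667, and Emd, which encodes emerin, was at 393.

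Promoters were searched for the CArG box, the sequence that SRF binds. RefSeq windows of GRCm38.p6, from 250 bases before to 50 after the gene start, were matched for 9 of the 10 genes, all but Actb. As a pattern that allows A or T at each middle base, the motif is its own reverse complement, so that a search of 1 strand covers both. A single box need not read the same on both strands. An exact CArG box was found in 3 of these 9 genes, beside 1.81% of the 27025 genes with a window and 1.63% of the 32851 windows. The 3 were Srf, Actg1 and Vcl, and Srf held 2 of them. The 10 genes were picked as Srf, its cofactor and actin cytoskeleton genes known as targets of this pathway. A share above that of all genes is therefore tied to the choice, and it was not tested. The stretches below show where the letters lie, with the CArG box in capitals.
Srf, minus strand, chr17:46556225-46556254: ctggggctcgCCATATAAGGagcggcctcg
Srf, minus strand, chr17:46556205-46556234: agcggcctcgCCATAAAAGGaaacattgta
Actg1, minus strand, chr11:120348566-120348595: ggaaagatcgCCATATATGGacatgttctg
Vcl, plus strand, chr14:20929161-20929190: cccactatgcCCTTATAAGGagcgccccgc
The boxes of Srf began 82 and 62 bases before the RefSeq start at 46556162, that of Actg1 90 bases before the RefSeq start at 120348495 and that of Vcl 227 bases before the start at 20929398. The GENCODE starts of Srf and Actg1 lie further upstream, at 46556175 and 120348542, and from these the boxes began 69 and 49 bases before Srf and 43 bases before Actg1.

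The genes with a CArG box were not at 1 end of the set. Actg1 is the gene with the second-highest level per kilobase of the 10, and Vcl and Srf are those with the lowest levels. Flna, Myh9, Tln1, Zyx, Tagln2 and Mkl1 had no exact match, which says only that these letters are not in this window. Of the 12 targets of SRF with MKL proteins outside the set that have a window, 4 held an exact match (Cnn2, Lima1, Myl9 and Fhl2), and their levels ran from 3.16 for Fhl2 to 9240 for Cnn2 in normalised counts per kilobase. A match describes the sequence, not binding.

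Marker genes describe which cells the mean holds. All 8 neutrophil markers were at or above the 90th percentile of mean normalised count, and S100a9 had the highest mean of all genes. Of 8 monocyte markers, 7 were above this limit, with Itgam, the CD11b gene, the most abundant. Itgam does not separate monocytes from granulocytes here, since both subsets were sorted as CD11b+. The markers of other cells were not at 0. All 5 B cell markers and all 6 tissue macrophage markers were above the limit, with Cd79a and Vcam1 the most abundant. The summed mean was 24246 normalised counts over the B cell markers and 59880 over the macrophage markers. Of 5 erythroid markers 2 were above it, led by Hbb-bs, and of 5 dendritic cell markers 1 was, Itgax. Of 6 T or NK cell markers 0 were above it, and Cd4 was the most abundant.

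Platelets and smooth muscle cells are rich in talin, filamin, vinculin and actin. Of 5 platelet or megakaryocyte markers 0 were above the limit, and their summed mean was 357 normalised counts, with Itga2b the most abundant. Of 6 markers of smooth muscle cells or fibroblasts 0 were above it, and their summed mean was 130 normalised counts, with Col1a1 the most abundant. Acta2, the smooth muscle actin gene, is not in that list and had a mean of 984 normalised counts. The summed mean of the 10 genes described was 567716 normalised counts. The part of each cell type in the levels of the 10 genes was not tested.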

How the data were processed

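The authors used cutadapt 1.14 for trimming and STAR 2.5.2b for alignment (build mm10), estimated counts per gene with RSEM 1.3.0 and GENCODE annotation, and compared groups with DESeq2 1.20.0; FastQC 0.11.5 and Picard 1.119 are also named in the submitters' processing notes. The deposited signal used here is the authors' mean per gene of counts divided by size factors, and the samples averaged are not stated. The other 6 value columns of the table hold the authors' comparison (log2 fold change, its standard error, statistic, p-value, adjusted p-value and fold change) and were not used. The planned test between genotypes needs values per sample and was not run, and the table does not give the depth of a sample.

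Lengths, gene types and positions came from GENCODE M21 (mm10, newer than the authors' release), in which 23004 of 23084 identifiers were found. For 28 symbols on more than 1 row, the row with the highest mean was used. Stretches of 50 bases were taken from the transcript with the longest coding part. Named are the 10 genes, the highest and lowest gene of each gene list, the most abundant gene of each marker list, and genes set beside the 10. Ap3m1, Gm12715 and genes named beside a count of 5 or fewer were chosen after seeing the values. Some planned genes and lists are not reported here. The genes and lists were chosen with earlier results of these data known. The motif search, exon lengths and shared stretches were tested on simulated data. Python 3.11.15, pandas 2.3.3, numpy 2.4.6 and matplotlib 3.10.9 were used.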

Additional observations from a re-analysis of the deposited data

How the results depend on the processing

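No paired analysis was possible because only means over samples were used. The test between genotypes, its other normalizations and filters, and leaving out replicates were not run for the same reason.

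The count of genes at or above the 90th percentile was 9, and it was 8 among protein-coding genes or genes with a mean of at least 10, where Tagln2 fell below, 9 with no filter, and 10 per kilobase. The ratio of Actb to Actg1 per kilobase was 1.82 with the longest transcript and 1.79 with the coding length. Without length correction, Actb and Actg1 held 99.7% of the summed actin level. With 1 base of the CArG box free to differ, 5 of the 9 genes with a window had a match, Flna and Mkl1 being added, beside 23.8% of all genes with a window. With exact matches before the gene start alone the count was 3. Because the genes were picked as an SRF pathway, these shares are descriptions and were not tested. In the order by level per kilobase, 2 genes changed place with the longest transcript (Tln1 and Zyx) and 3 with the coding length (Flna, Tln1 and Zyx).

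Means carry no error here, so which neighbours in that order differ is not known. Reads shared between Actg1 and its pseudogenes, or between Vcl and Ap3m1, limit those levels.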
